A study of Mus musculus with 8 samples.

Results

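The ligands and receptors of axon guidance were examined in neurons of the arcuate (Arc), ventromedial (VMH) and dorsomedial (DMH) nuclei of the hypothalamus. Members were all array probes named for a Slit, a Robo, a semaphorin of classes 3 to 7, a plexin, a neuropilin, an Eph receptor, an ephrin, a netrin, a netrin-G, an Unc5 or Dcc. They made up 71 of 34836 gene names, 104 of 55681 probes and 113 of 59305 spots, with 37 ligands and 34 receptors. The RNA came from pools of laser-captured neurons that carried the green fluorescent protein ZsGreen, in 2 samples of Arc, 3 of VMH and 3 of DMH. The mice were 2-month-old females of the cross Nkx2-1-CreERT2 x Rosa-ZsGreen, so in all 3 groups tamoxifen had switched on the reporter in cells with Nkx2-1 expression at the time of treatment. Nkx2-1 is a homeobox factor of the ventral hypothalamus, and only neurons marked by the reporter were collected. The labels name no other treatment. Neither the animals behind each pool nor their number were given in the sources used here, so each p-value reflects only how far these samples spread, which may be technical.

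Axon guidance proteins steer growing axons by attraction or repulsion at the growth cone. Slits are secreted and act through Robo receptors; semaphorins act through plexins, with neuropilins as co-receptors for most of class 3; ephrins sit on cell surfaces and bind Eph receptor kinases; netrins act through Dcc and Unc5 receptors. Many of these genes stay on in adult neurons, where they are known for roles at synapses and in the upkeep of connections.

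Each value below is a level, the log2 processed signal of a probe relative to the 75th percentile of its array (taken over non-control spots), so 0 is the signal of that percentile and 1 unit is a 2-fold difference. That percentile lay between 1806 and 3042 intensity units over the 8 arrays. Levels of different probes are not comparable with each other, and the small number of arrays limits the precision. A probe was kept if, in 1 nucleus or more, all arrays showed it well above background. By this rule 61 of the 71 members were measured, 31 ligands and 30 receptors. Of these, 56 stood well above background on all 8 arrays. The 10 members that did not pass were Efna1, Epha2, Epha3, Ntn3, Ntn4, Ntng2, Robo1, Robo4, Sema3d and Sema7a, and 4 members (Efna1, Epha2, Epha3 and Robo4) did not rise well above background anywhere. No member was saturated. Marker genes went with the labels of the nuclei: all 5 VMH markers, all 5 DMH markers and all 6 Arc markers were higher in their own nucleus. These markers were chosen with earlier results of these data known, so this is no independent check of the labels. In pools of this kind, fewer cells that express a gene and less RNA per cell cannot be told apart.

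Of the 61 measured members, 5 were higher in VMH than in the mean of Arc and DMH and 0 were lower, against 0.871% of all 27431 genes tested that were higher and 0.47% that were lower (limma, Benjamini-Hochberg adjusted p under 0.05 over all genes). All 5 were ligands: Slit2, Slit3, Sema3f, Sema5a and Efna3. Only Efna3 had a further probe, and the others rest on 1 probe each. Of the 30 receptors none passed with limma on the brightest probes, although 8 had an unadjusted p under 0.05. Receptors did pass under alternatives: Ephb1 under 3 of 17, and Epha5 and Epha10 with the mean of a gene's probes. The difference between ligands and receptors was not tested. At an unadjusted p under 0.05 the members numbered 23 of 61 (37.7%), beside 13.1% of all genes. The median difference of the members was 0.08, beside 0.01 over all genes, and the differences ran from -1.91 to 2.79. The count of 5 moved both ways with the processing. It was 9 with normexp background correction, which added Ephb1, Ntng1 and Slit1 as higher and Sema6c as lower, and 10 with trended and robust eBayes, which added these and Unc5a as higher. It was 2 without VMH replicate 1 or without VMH replicate 2, and 3 without VMH replicate 3 or without DMH replicate 3. Slit2 and Slit3 passed in each of these fits.

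**Figure D1:**
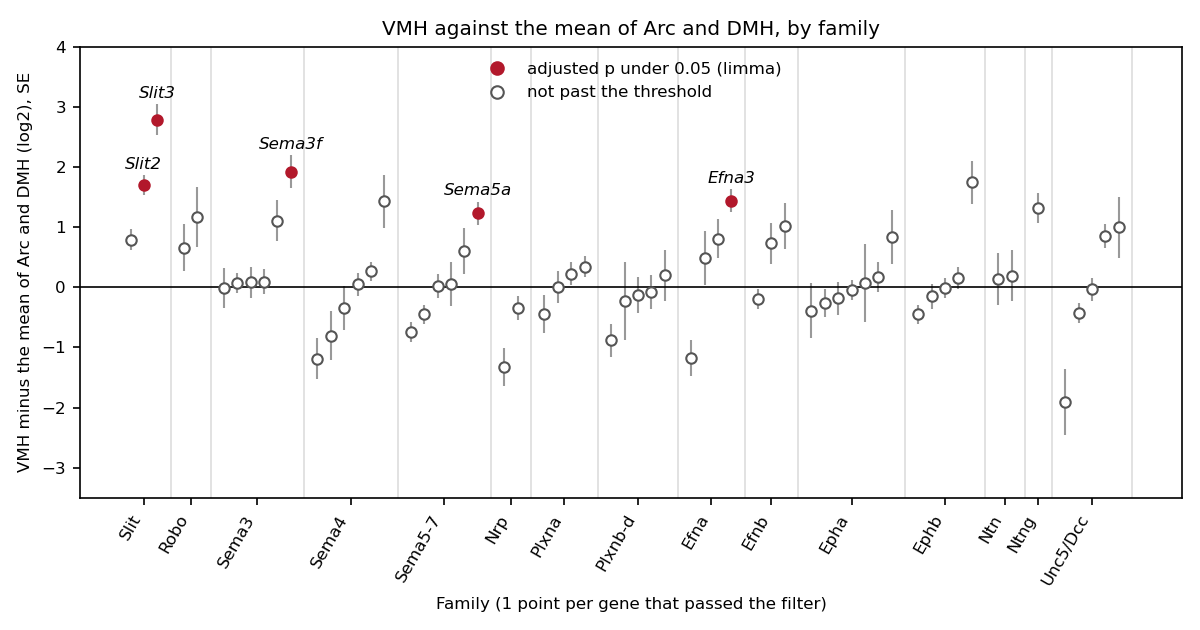
Difference between VMH and the mean of Arc and DMH on the log2 scale (vertical axis) for each of the 61 measured members, grouped by family (horizontal axis); bars are the standard error of the limma fit and filled points passed the threshold. The 5 filled points, Slit3, Slit2, Sema3f, Sema5a and Efna3, are all ligands and all lie above 0.

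Slit3 had the largest difference in this comparison among the brightest probes of the members. Its probe (chr11:35521559-35521618 in mm9, plus strand) read 1.63, 0.54 and 0.96 in VMH replicates 1 to 3, -1.34, -1.22 and -1.26 in DMH replicates 1 to 3, and -2.12 and -2.33 in Arc replicates 1 and 2. The nuclei did not overlap, with VMH highest, DMH between and Arc lowest. The VMH level was 2.79 ± 0.25 (SE) above the mean of the other nuclei, a 6.93-fold difference (adjusted p = 0.0042, limma). It was 3.27 above Arc (adjusted p = 0.0065) and 2.32 above DMH (adjusted p = 0.0126), whereas DMH and Arc, 0.95 apart, did not differ past the threshold (adjusted p = 0.204, limma). The difference from DMH missed the threshold without VMH replicate 3 or any 1 of the DMH replicates, with adjusted p up to 0.0536 over the alternatives tried.

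Slit2 showed the same order of nuclei. Its probe (chr5:48696673-48696732 in mm9, plus strand) read 2.87, 2.62 and 2.65 in VMH, 1.71, 1.55 and 1.91 in DMH, and 0.32 and 0.28 in Arc. Both Arc values lay below every other array and all VMH values above every other array. VMH exceeded the mean of the other nuclei by 1.70 ± 0.17 (SE), or 3.25-fold (adjusted p = 0.0056, limma), and exceeded Arc by 2.41 (adjusted p = 0.0038). The difference of 0.99 between VMH and DMH came close to the threshold without passing it (adjusted p = 0.0561, limma).

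Slit1, the remaining Slit, was also highest in VMH, at 3.33, 3.36 and 3.50, against 3.00 and 2.69 in Arc and 2.17, 2.57 and 2.35 in DMH. All VMH arrays lay above all others, but here DMH and not Arc was lowest. The difference of 0.79 between VMH and the mean of the other nuclei did not pass the threshold (adjusted p = 0.0923, limma), but it passed with normexp and with trended and robust eBayes (lowest adjusted p = 0.029).

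**Figure D2:**
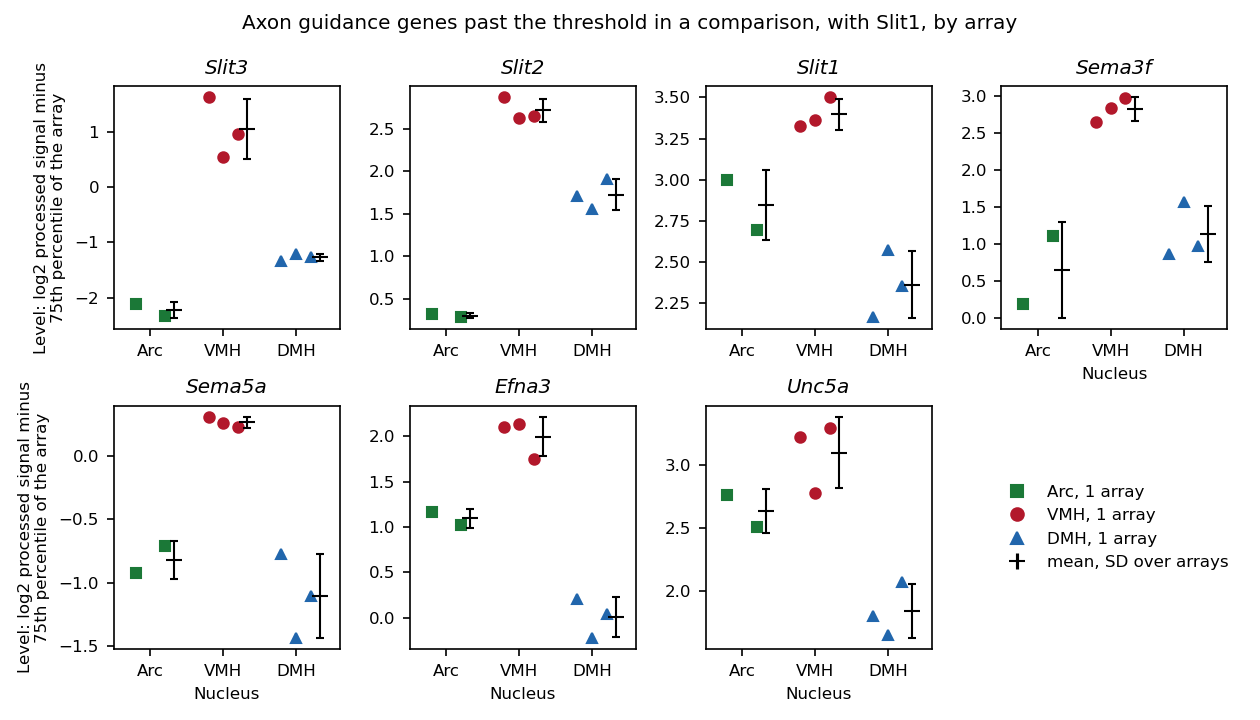
Levels (vertical axes, log2 processed signal minus the 75th percentile of the array) of the 6 members that passed in a comparison, with Slit1, on each array of Arc, VMH and DMH (horizontal axes); black bars are the mean and SD over 2 arrays of Arc and 3 of VMH and of DMH, and the axes have different ranges. In Slit3 and Slit2 the nuclei separate in the order VMH, DMH, Arc, whereas in Slit1, Efna3 and Unc5a DMH is lowest.

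Slit2 and Slit3 each hold a hairpin of the same microRNA, miR-218, on the strand of the gene itself. Among the 71 members, 9 span a microRNA gene in the RefSeq tables of GRCm38.p6. The mature sequences are shown because the 5p arm is identical in both host genes whereas the 3p arms differ; capitals mark the seed, bases 2 to 8. The microRNA itself was not analysed here.
miR-218-5p, in Slit2 (chr5:48223966-48223986, plus strand) and in Slit3 (chr11:35616840-35616860, plus strand): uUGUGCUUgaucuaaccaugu
miR-218-1-3p, in Slit2: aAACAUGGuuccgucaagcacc
miR-218-2-3p, in Slit3: cAUGGUUCugucaagcaccgcg

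The Robo receptors that bind Slits gave no call, and only Robo2 stood well above background on every array. Robo2 read -2.39 and -1.95 in Arc, -1.89, -0.92 and -0.29 in VMH, and -1.67, -1.30 and -0.69 in DMH. Arc was lowest on both arrays, while VMH and DMH overlapped, and the Arc difference of -1.04 did not pass the threshold (adjusted p = 0.303, limma). A further Robo2 probe showed no VMH difference, at -0.07 where the brightest one gave 0.66. Robo3, an atypical member of the family, was not well above background on either Arc array but was so on 3 of 3 VMH and 2 of 3 DMH arrays. Robo3 passed the filter only through VMH, so a higher VMH level is tied to the filter. Its VMH mean of -3.29 was 1.74 above that of Arc (adjusted p = 0.272, limma). With Arc replicate 1 raised to the lowest signal well above background on its array and Arc replicate 2 as read, VMH was 2.80-fold above Arc. Neither Arc value stood well above background, so this size is no lower bound. A second Robo3 probe stood well above background only on VMH replicate 2. Robo1 was well above background on 0 of 2 Arc, 1 of 3 VMH and 2 of 3 DMH arrays, and Robo4, the endothelial member, on none.

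Among the semaphorins, Sema3f and Sema5a were higher in VMH. Sema3f, a secreted repellent that signals mainly through neuropilin-2, had a probe at chr9:107583833-107583892 (mm9, minus strand). It read 2.65, 2.83 and 2.97 in VMH, 0.86, 1.57 and 0.98 in DMH, and 0.19 and 1.11 in Arc. VMH lay above all other arrays, and Arc and DMH overlapped. The VMH difference was 1.92 ± 0.27 (SE), or 3.8-fold (adjusted p = 0.0202, limma). It lost the threshold without VMH replicate 1, 2 or 3 or DMH replicate 3, with adjusted p up to 0.0922 over the alternatives. Sema3f was also higher in VMH than in Arc (by 2.17, adjusted p = 0.0344) and than in DMH (by 1.68, adjusted p = 0.0486, limma). The call against Arc was lost under 8 of 17 alternatives and that against DMH under 11 of 17, with adjusted p up to 0.111 and 0.16; the latter was lost with quantile normalization, with no filter and without any 1 of the VMH or DMH replicates.

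Sema3b, whose probe lies 83.1 kb from that of Sema3f in mm9, gave 1.23 and 0.87 in Arc, 1.62, 0.95 and 1.06 in VMH, and 1.34, 1.12 and 1.07 in DMH. Its nuclei overlapped, with a VMH difference of 0.10. The other measured class 3 members, Sema3a, Sema3c, Sema3e and Sema3g, differed by -0.01 to 1.11 between VMH and the mean of the other nuclei, and none passed.

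Sema5a, a transmembrane semaphorin with thrombospondin repeats, read 0.31, 0.27 and 0.23 in VMH, -0.77, -1.44 and -1.11 in DMH, and -0.93 and -0.71 in Arc (probe at chr15:32626025-32626084 in mm9, plus strand). VMH stood above all other arrays with little spread, and Arc and DMH overlapped. The difference was 1.23 ± 0.19 (SE), or 2.35-fold (adjusted p = 0.0295, limma), and VMH was 1.38 above DMH (adjusted p = 0.0315). The call against the mean of both was the least stable of the 5: it was kept under 8 of 17 alternatives and lost under 9, among them the loss of any array but DMH replicate 1, with adjusted p up to 0.134. The call against DMH was lost under 10 of 17, again with the loss of any array but DMH replicate 1, with adjusted p up to 0.117. The brightest probe of its paralogue Sema5b ran the other way, at -1.19 to -1.0 in VMH against -0.48 and -0.39 in Arc and -0.94, -0.92 and -0.70 in DMH. On that probe all VMH values lay below all others and all Arc values above all others, but neither difference passed the threshold (VMH -0.45, adjusted p = 0.275, limma). A dimmer Sema5b probe overlapped between nuclei, at -1.27, -0.30 and -0.84 in VMH, -0.79 and -0.93 in Arc, and -1.25, -1.12 and -0.78 in DMH. On another, VMH (-2.54, -3.35 and -3.64) overlapped DMH (-6.75, -1.97 and -2.21), with Arc at -1.18 and -2.42.

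Class 4 semaphorins, which are membrane proteins that act mostly through B plexins, gave no call among 6 members. Sema4g had the largest t statistic of the class. It read 0.41, 0.30 and -0.67 in VMH, below all other arrays, against 1.31 and 1.32 in Arc and 0.63, 1.71 and 0.90 in DMH, a difference of -1.19 (adjusted p = 0.178, limma). The class 6 members differed by -0.74 (Sema6c) to 0.60 (Sema6b) in VMH. The brightest Sema6c probe was below all other arrays in VMH, at 2.09, 1.96 and 2.16 against 2.66 to 3.06 elsewhere, with adjusted p = 0.0991 (limma), and it passed with normexp and with trended and robust eBayes. A dimmer Sema6c probe gave another pattern, at -0.93, -0.86 and -1.18 in VMH, -1.42, -1.19 and -0.90 in DMH, and 0.07 and 0.39 in Arc. Here VMH and DMH overlapped and Arc was above both.

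No semaphorin receptor passed in any of the 6 comparisons. Neuropilin-1 (Nrp1), the receptor subunit for Sema3a, read -3.51, -3.91 and -3.40 in VMH, -2.27 and -2.38 in Arc, and -2.40, -2.85 and -1.48 in DMH. VMH lay below all other arrays, with a difference of -1.32 (adjusted p = 0.116, limma). Neuropilin-2 (Nrp2) overlapped between nuclei, at 2.48 to 2.75 in VMH, 2.54 and 3.12 in Arc, and 2.82 to 3.20 in DMH (VMH difference -0.34, adjusted p = 0.533, limma), and its second probe gave 0.42 in the opposite direction.

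Of the plexins, all 9 were measured. Plxna4, a partner of the neuropilins, had the largest t among the A plexins: it read -0.31 and -0.72 in Arc, 0.35, 0.17 and 0.48 in VMH, and 0.57, 0.53 and 0.38 in DMH. Arc was below all other arrays by 0.93 on average (adjusted p = 0.0951, limma). On a dimmer Plxna4 probe Arc again had the lowest mean but overlapped VMH, at -1.89 and -1.05 against -0.73, -0.23 and -1.10. The brightest probe of Plxnc1, the receptor for Sema7a, was below all other arrays in VMH, at 0.47, 0.00 and -0.27 against 0.55 and 0.86 in Arc and 1.72, 0.79 and 1.05 in DMH, a difference of -0.88 (adjusted p = 0.22, limma). A dimmer Plxnc1 probe overlapped between nuclei, at -1.10, -0.83 and -0.82 in VMH, -0.50 and -0.86 in Arc, and -1.16, 0.30 and -0.47 in DMH. The brightest Plxna2 probe lies on chromosome 14 in mm9, whereas RefSeq places the gene on chromosome 1, and its values overlapped between nuclei (4.56 to 5.32). Plxna2 could thus not be judged from it. A dimmer Plxna2 probe on chromosome 1 also overlapped, at 0.35, 0.51 and 0.74 in VMH, 0.54 and -0.17 in Arc, and 0.19, -0.14 and -0.26 in DMH.

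Of the A-type ephrins, which are held in the membrane by a lipid anchor, Efna3 passed in VMH and in DMH. Its probe (chr3:89120386-89120445 in mm9, minus strand) read 2.11, 2.14 and 1.74 in VMH, 1.17 and 1.02 in Arc, and 0.21, -0.23 and 0.04 in DMH. The nuclei did not overlap, with VMH highest and DMH lowest. VMH exceeded the mean of Arc and DMH by 1.44 ± 0.19 (SE), or 2.72-fold (adjusted p = 0.0148, limma). This call was lost without VMH replicate 1, without VMH replicate 2, and with the replicate number as a block. VMH exceeded DMH by 1.99, or 3.97-fold (adjusted p = 0.0063), and this call held when any array was left out. A second Efna3 probe, dimmer, gave 1.38 for VMH in the same direction (adjusted p = 0.0562 with limma fitted on every probe).

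Neither neighbouring ephrin gene passed the threshold or, in the case of Efna1, the filter. Efna4, with a probe 17.7 kb away, read 0.71, 1.67 and 1.39 in VMH, 0.16 and 2.08 in Arc, and 0.13, 0.83 and 0.31 in DMH, so that its nuclei overlapped, with means in the order VMH, Arc, DMH as in Efna3 (VMH difference 0.48, adjusted p = 0.727, limma). Efna1, 44.6 kb away, had no array with signal well above background, and no difference between the ephrin genes was tested. Efna5, on chromosome 17, was below all other arrays in VMH, at 0.39, -0.57 and -0.29 against 0.51 and 1.11 in Arc and 1.65, 1.23 and 0.83 in DMH, without passing (difference -1.18, adjusted p = 0.139, limma).

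The 3 B-type ephrins, transmembrane ligands, gave no call. The brightest Efnb2 probe read -1.59, -1.62 and -1.23 in DMH, below all other arrays, against 0.71 and -0.16 in Arc and 0.37, 0.65 and -0.63 in VMH. Its DMH difference of -1.68 did not pass the threshold (adjusted p = 0.0865, limma). On a dimmer Efnb2 probe DMH also had the lowest mean but overlapped Arc, at -1.33, -1.97 and -2.33 against -1.02 and -1.83.

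The brightest probes of the Eph receptors gave no call for 7 measured A-type and 5 B-type genes. Ephb1 came nearest. It read 0.69, 0.59 and 0.41 in VMH, -0.04, -0.87 and -0.62 in DMH, and -2.62 and -1.11 in Arc. The nuclei did not overlap, VMH was 1.75 above the mean of the others (adjusted p = 0.0722, limma), and this passed without Arc replicate 2, with normexp and with trended and robust eBayes (lowest adjusted p = 0.0203). Epha1 was highest in Arc, at -1.21 and -1.18, against -2.19 to -1.29 elsewhere (difference 0.69, adjusted p = 0.267, limma).

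Probes of the same Eph receptor gene disagreed in Epha5 and Epha10. The brightest Epha5 probe (chr5:84487348-84487407, mm9, minus strand) lay between 6.51 and 7.16 on all arrays, and its VMH difference was -0.04 (adjusted p = 0.959, limma). A dimmer probe 7.48 kb from it read -1.16, -0.97 and -0.68 in VMH, -3.80 and -2.98 in Arc, and -3.27, -3.21 and -3.18 in DMH. Here VMH lay above all other arrays. Its VMH difference was 2.37, or 5.16-fold (adjusted p = 0.0071, limma fitted on every probe). A probe 3.45 kb away on the other side read -1.07, -1.24 and -0.88 in VMH, -1.91 and -2.03 in Arc, and -2.60, -2.43 and -2.49 in DMH, a difference of 1.17, or 2.25-fold (adjusted p = 0.0269, limma). VMH was again above all other arrays. Epha5 encodes a receptor for A-type ephrins, and which of its transcripts each probe detects was not tested.

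In Epha10, a kinase-dead member of the family, the brightest probe overlapped between nuclei, at -0.51 to 0.08 in VMH. A probe 29.1 kb from it was dimmer on the mean of all arrays, by which probes were ranked, but brighter in VMH. It read 1.87, 1.88 and 1.42 in VMH, -4.73 and -3.43 in Arc, and -4.60, -2.41 and -0.88 in DMH. VMH was above all other arrays, only 1 of 2 Arc arrays stood well above background, and the DMH arrays were far apart. VMH was 33.7-fold above the mean of the others as measured (adjusted p = 0.0281, limma fitted on every probe), a size that rests on values near background. In this fit 8 of 87 member probes were higher in VMH and 0 lower, against 0.668% of 41488 probes that were higher and 0.357% that were lower. This fit was chosen after the values of these probes had been seen, and the probes of 1 gene share their source. With the mean of each gene's probes, an alternative to the brightest probe, the VMH difference was 1.17 in Epha5 (adjusted p = 0.0166) and 2.63 in Epha10 (adjusted p = 0.0373, limma).

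**Figure D3:**
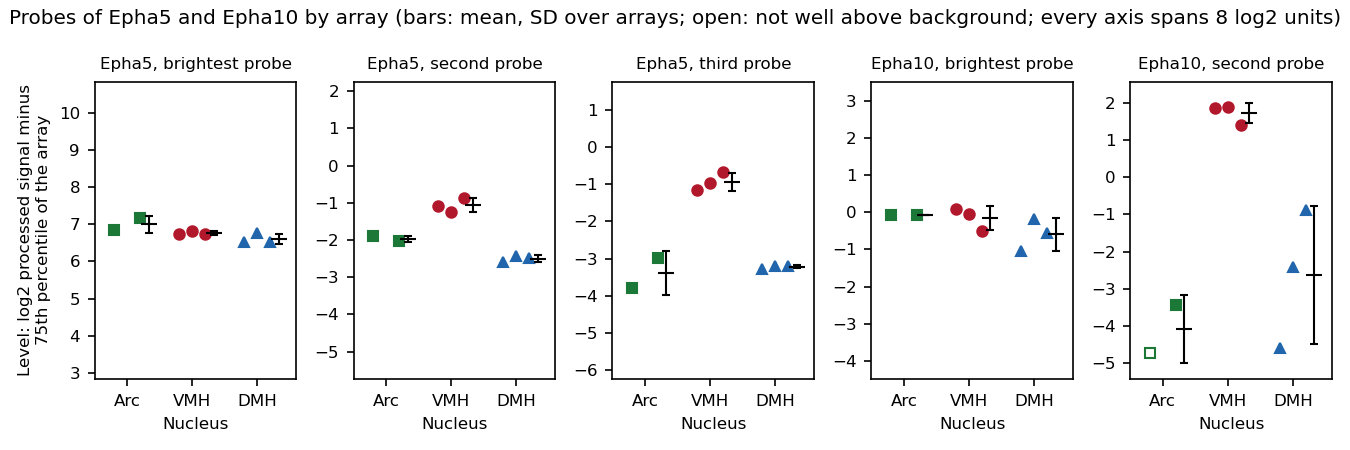
Levels (vertical axes, log2 processed signal minus the 75th percentile of the array) of the 3 Epha5 probes and the 2 Epha10 probes on each array of Arc, VMH and DMH (horizontal axes); bars are the mean and SD over arrays, and an open symbol was not well above background. The brightest probe of each gene (by the mean of all arrays) varies by about 1 unit or less over all arrays. The dimmer Epha5 probes, at -1.24 to -0.68 in VMH, and the second Epha10 probe, at 1.42 to 1.88 in VMH, are highest there.

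Upstream sequence is shown for Slit3, Sema5a and Efna3, the called members whose RefSeq window before the annotated start lies outside the gene's own span (GRCm38.p6, 250 bases, 5′ to 3′ on the gene's strand). Capitals mark matches on either strand to AAGGTCA, a monomer site of steroidogenic factor 1 (Nr5a1), the transcription factor that marks VMH; CAAGTG, the core bound by Nkx2-1; TATAAA, the TATA box; and GGGCGG, the GC box. Matches may overlap or abut.
Slit3, chr11:35121206-35121455, plus strand: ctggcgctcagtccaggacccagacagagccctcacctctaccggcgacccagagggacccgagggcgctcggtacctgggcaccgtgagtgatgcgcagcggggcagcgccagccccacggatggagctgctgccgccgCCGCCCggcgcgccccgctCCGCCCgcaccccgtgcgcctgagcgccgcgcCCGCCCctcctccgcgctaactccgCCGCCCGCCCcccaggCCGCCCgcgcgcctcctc
Sema5a, chr15:32244563-32244812, plus strand: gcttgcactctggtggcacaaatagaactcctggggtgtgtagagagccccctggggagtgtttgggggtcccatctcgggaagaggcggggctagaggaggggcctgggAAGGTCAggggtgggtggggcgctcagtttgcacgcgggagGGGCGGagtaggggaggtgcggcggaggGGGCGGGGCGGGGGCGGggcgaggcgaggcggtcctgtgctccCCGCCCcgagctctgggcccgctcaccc
Efna3, chr3:89322940-89323189, minus strand: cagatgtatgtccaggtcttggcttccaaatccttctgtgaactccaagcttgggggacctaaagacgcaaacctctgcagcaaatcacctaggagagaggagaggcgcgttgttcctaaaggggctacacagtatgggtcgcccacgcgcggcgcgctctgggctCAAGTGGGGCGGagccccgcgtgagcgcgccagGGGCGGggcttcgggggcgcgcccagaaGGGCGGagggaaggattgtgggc

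GC boxes were the common feature of these windows, with 6 matches in Slit3, 5 in Sema5a and 3 in Efna3. Over all members, 54 of 77 windows (70.1%) held GGGCGG, beside 32.7% of 32851 windows in the table. Only Sema5a of the 3 held AAGGTCA, a match present in 4 of 77 member windows (5.19%) and in 4.08% of all windows. Only Efna3 held CAAGTG, present in 5 member windows (6.49%) and 11.6% of all. No TATAAA stood in the 3 windows shown, and 12.4% of all windows held one. The GC content was 78.8% in Slit3, 72% in Sema5a and 63.6% in Efna3, against a median of 64.4% over the members' windows and 52.4% over all windows. These matches are letters in a window and say nothing of binding.

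Netrins and their receptors gave a single call, in Unc5a, which has 1 probe. Unc5a, a repulsive netrin receptor, read 3.23, 2.78 and 3.30 in VMH, 2.76 and 2.51 in Arc, and 1.80, 1.65 and 2.07 in DMH (probe at chr13:55107318-55107377 in mm9, plus strand). VMH was above and DMH below all other arrays. VMH exceeded DMH by 1.26 ± 0.22 (SE), or 2.39-fold (adjusted p = 0.0471, limma). It was kept under 5 of 17 alternatives and lost under 12, among them the loss of any 1 of the 8 arrays, and the difference from the mean of Arc and DMH was 0.86 (adjusted p = 0.11, limma), which passed only with trended and robust eBayes.

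Unc5b, another repulsive receptor, was highest in Arc, at -0.46 and -0.20 against -3.28, -4.76 and -2.06 in VMH and -2.53, -3.04 and -2.20 in DMH. Arc lay above all other arrays. The difference of 2.65 was the largest of any member in Arc, but VMH replicate 2 was not well above background, the VMH arrays were far apart, and it did not pass (adjusted p = 0.119, limma). With normexp it passed, at 1.68 (adjusted p = 0.0199, limma). Unc5b was then also lower in VMH than in Arc (-1.81, adjusted p = 0.0157) and in DMH than in Arc (-1.55, adjusted p = 0.0443, limma). Unc5c and Unc5d differed in VMH by 1.00 and -0.42 and did not pass.

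Dcc, the attractive netrin receptor, could not be judged from its brightest probe, which lies on chromosome 7 in mm9 whereas RefSeq places the gene on chromosome 18. That probe read 4.07 to 4.62 on all arrays. The 2 dimmer Dcc probes, on chromosome 18, lay between -4.17 and -0.71, with VMH differences of 0.03 and -0.56 and adjusted p of 0.994 and 0.545 (limma fitted on every probe).

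Netrin-1 (Ntn1) overlapped between nuclei, at 3.10, 3.67 and 4.36 in VMH, 3.25 and 4.88 in Arc, and 2.70, 3.23 and 3.32 in DMH. Its DMH difference was -0.80 (adjusted p = 0.403, limma), and its 2 probes disagreed in VMH, at 0.14 and -0.86. Ntn3 and Ntn4 did not pass the filter on dim probes.

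Netrin-G1 (Ntng1), a lipid-anchored protein that binds a partner at synapses and not Dcc, was high in VMH. It read 3.53, 3.93 and 4.04 in VMH, 2.80 and 2.26 in Arc, and 2.18, 2.38 and 2.96 in DMH. VMH was above all other arrays and Arc and DMH overlapped. The difference of 1.32 missed the threshold (adjusted p = 0.0576, limma). It passed under 3 of 17 alternatives, namely normexp, the filter on all 8 arrays and trended and robust eBayes (lowest adjusted p = 0.0216). The other 2 Ntng1 probes gave 0.57 and 0.14. Ntng2 was well above background on 0 Arc, 1 VMH and 1 DMH array.

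Compared with Arc and VMH together, DMH had 0 higher members and 1 lower member of 61, beside 0.368% of genes higher and 0.474% lower. The lower one was Efna3, by 1.54 on the log2 scale (difference -1.54 ± 0.19 SE, adjusted p = 0.0195, limma). The call was lost without VMH replicate 2, without any 1 of the DMH replicates, and with the replicate number or the slide row as a block. A total of 19 members had an unadjusted p under 0.05 (31.1%, beside 16.3% of all genes).

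Arc had 0 higher and 2 lower members of 61, beside 0.193% of genes higher and 0.419% lower. They were Slit2 (difference -1.92 ± 0.18 SE, adjusted p = 0.0081, limma) and Slit3 (-2.11 ± 0.28 SE, adjusted p = 0.0272). The call of Slit2 held without any single array, but was lost with the replicate number as a block (adjusted p = 0.0578, limma). That of Slit3 was lost without Arc replicate 1 or 2, VMH replicate 3, or DMH replicate 1, 2 or 3. It was also lost with the replicate number or the slide row as a block. With normexp Unc5b was also called, as higher in Arc. At an unadjusted p under 0.05 there were 18 members (29.5%, beside 15.7% of all genes). The comparisons of single nuclei with the rest share all 8 arrays.

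Between pairs of nuclei, 5 of 61 members were higher in VMH than in DMH and 0 lower, beside 0.787% of genes higher and 0.441% lower: Efna3, Sema3f, Sema5a, Slit3 and Unc5a. Without an array this count fell to 3 (Arc replicate 1 or 2), 2 (VMH replicate 1 or 2, DMH replicate 1) or 1 (VMH replicate 3, DMH replicate 2 or 3), and Efna3 passed each time. In VMH against Arc, 3 were higher and 0 lower, beside 0.66% of genes higher and 0.317% lower: Sema3f, Slit2 and Slit3. Slit2 and Slit3 passed without any single array, while Sema3f was lost without Arc replicate 1, any 1 of the VMH replicates, or DMH replicate 1 or 3. In DMH against Arc, 1 was higher and 0 lower, beside 0.244% of genes higher and 0.175% lower: Slit2, by 1.42 (adjusted p = 0.0416, limma), lost without any 1 of the 8 arrays.

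**Figure D4:**
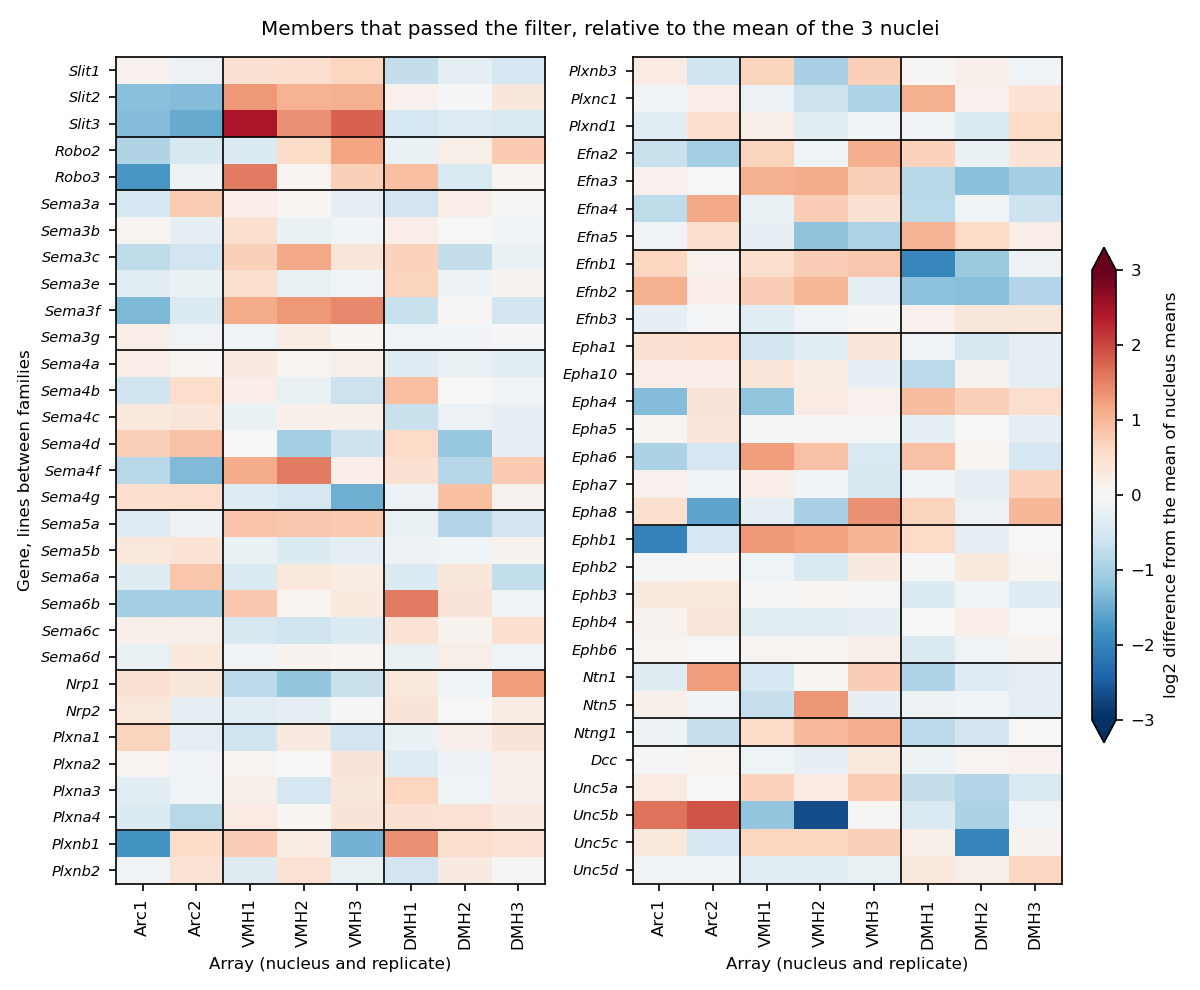
Log2 difference of each of the 61 measured members (vertical axes, by family) from the mean of its 3 nucleus means, on each of the 8 arrays (horizontal axes); red is above and blue below that mean, and the colour scale ends at 3 in both directions. Slit3, Slit2, Sema3f and Sema5a are red on the 3 VMH arrays, Unc5b is red on both Arc arrays, and many members vary within a nucleus.

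By rank alone and on the brightest probes, 10 of 61 members (16.4%) had all VMH arrays above all others, beside 5.48% of genes: the 5 called ones with Ephb1, Ntng1, Slit1, Unc5a and Unc5c. A further 8 (13.1%) had all VMH arrays below all others, beside 4.03% of genes: Efna5, Ephb4, Nrp1, Plxnc1, Sema4g, Sema5b, Sema6c and Unc5d. In Arc, 7 of 61 members were above all other arrays, beside 10% of genes, and 8 below (13.1%, beside 6.66%). In DMH, 3 were above (4.92%, beside 3.6%) and 7 of 61 below, beside 5.66% of genes, among them Efna3, Efnb1, Efnb2, Slit1 and Unc5a. The 3 above were Efnb3, Epha4 and Unc5d. Epha4 passed the filter only through DMH, so its rank there is tied to the filter. The share of members above all others in Arc and in DMH was thus near that of all genes.

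Genes that act beside or behind these receptors were read from a list of 53, of which 52 were on the array and 49 were measured. In VMH 1 was higher and 2 were lower than in the mean of Arc and DMH, beside 0.871% of all genes higher and 0.47% lower, and 11 of 49 (22.4%) had an unadjusted p under 0.05, beside 13.1% of all genes. The higher one was Nell2, a secreted ligand of Robo3, by 1.00 (adjusted p = 0.0314, limma). The lower ones were Flrt3, a membrane protein that binds Unc5 receptors (-1.25, adjusted p = 0.019), and Mical1, an oxidoreductase that acts on actin downstream of plexins (-1.75, adjusted p = 0.0269, limma). These calls were lost under 10 (Nell2), 5 (Flrt3) and 8 (Mical1) of 17 alternatives, in each case without any 1 of the VMH replicates. Flrt3 and Mical1 were both higher in DMH, by 1.80 and 1.57 (adjusted p = 0.01 and 0.0495, limma), beside 0.368% of all genes, a call that Flrt3 lost under 1 of 17 alternatives (without DMH replicate 1) and Mical1 under 11, among them the loss of any 1 array. Nell2 was lower in Arc (difference -1.35, adjusted p = 0.027, limma), beside 0.419% of all genes, a call lost under 9 of 17, among them the loss of any array but DMH replicate 1. Between pairs, Flrt3 and Mical1 were lower in VMH than in DMH (beside 0.441% of genes), Nell2 was higher in VMH than in Arc (beside 0.66%), and Flrt3 was higher in DMH than in Arc (beside 0.244%), with no other call among the 49. Only Flrt3 in VMH against DMH kept its call under all 17 alternatives; Mical1 there lost it under 6 (among them VMH replicate 2 or 3 or any 1 of the DMH replicates left out), Nell2 in VMH against Arc under 6 (among them any 1 Arc or VMH array left out) and Flrt3 in DMH against Arc under 11 (among them any 1 array left out). The median VMH difference of the 49 was 0.24, beside 0.01 over all genes.

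Markers of other cell types were summed as linear levels relative to the 75th percentile. The 6 oligodendrocyte markers measured of 7 (Opalin did not pass) summed to 18.0 to 27.7 in VMH, 13.7 to 19.9 in DMH and 8.50 to 17.1 in Arc. They were highest in VMH, as were the members called higher there, but VMH and DMH overlapped, and 0 of 6 passed in any nucleus. The 5 markers of oligodendrocyte precursors were not highest in VMH, at 1.99 to 2.13 against 1.48 to 2.47 in DMH and 2.22 to 2.55 in Arc, with 0 called. The 6 astrocyte markers measured of 7 (Gja1 did not pass) summed to 11.0 to 11.6 in DMH, 6.67 to 10.3 in VMH and 6.34 to 8.36 in Arc, with 1 higher in DMH. The 7 endothelial markers summed to 5.53 to 5.88 in Arc, 4.17 to 4.98 in VMH and 3.32 to 4.97 in DMH, with 0 called. The 7 microglial markers summed to 29.7 to 32.7 in Arc, 23.9 to 27.5 in VMH and 20.8 to 25.9 in DMH, again with 0 called. The 5 markers of tanycytes and ependyma summed to 3.95 to 4.60 in Arc, 2.21 to 2.81 in VMH and 1.36 to 1.68 in DMH, with 1 lower in VMH and 1 higher and 1 lower in DMH. The 5 neuronal markers summed to 234 to 240 in Arc, 193 to 240 in VMH and 153 to 192 in DMH, with 1 lower in Arc. The part of these cells in the differences of the members was not tested. All arrays were on 1 slide, and within each of its rows the VMH difference of Slit3 was 2.76 and 2.78 and that of Slit2 1.69 and 1.63.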

How the data were processed

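Spot intensities of the red channel (Cy5, 1 colour) were deposited as background-subtracted, detrended processed signals with flags, per the file headers (software Agilent Feature Extraction 11.5.1.1, also in the submitters' processing notes); they are not normalized between arrays. Samples were grouped by nucleus from the labels. Outlier spots were left out, log2 was taken, the 75th percentile of the array subtracted, and spots of a probe averaged. The brightest probe, by the mean of all arrays, stood for a gene. All 27434 measured genes were fitted with a mean for each nucleus in limma 3.58.1 in R 4.3.3 (5 residual degrees of freedom), with 6 contrasts and Benjamini-Hochberg adjustment at 0.05; the fit was tested on simulated data. Probe positions are those of the files (mm9); sequences are from RefSeq (GRCm38.p6), where all 71 symbols matched and 61 had a promoter entry.

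Named are members past the threshold in any contrast, the member of each other family with the largest moderated t, and a fixed set; others given by name (such as Sema5b, Sema6c, Unc5b, Efna4, Efna5, Sema3b and Epha10) were chosen after their values were seen. The members and lists were chosen with earlier results of these data known. Alternatives were normexp (offset 50), quantile normalization, other percentiles, filters, probe rules and variance models, blocks, and each array left out. The authors' series-wide value table was not used, because its columns run in constant steps.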

Additional observations from a re-analysis of the deposited data

How the results depend on the processing

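Of 17 called differences under 289 alternatives, 202 kept the call, 87 lost it and 0 reversed. Slit2 and Slit3 in VMH against the mean and against Arc, and Efna3 in VMH against DMH, kept it under all 17. The filters and the variance model left these differences as they were and moved only the adjusted p. Slit2 and Slit3 have 1 probe each, so the mean of a gene's probes left theirs unchanged too. Such alternatives could not reverse a sign. The number of members called ranged, with 1 array left out, from 2 to 5 in VMH, 0 to 1 in DMH, 1 to 2 in Arc, 1 to 3 in VMH against DMH, 2 to 4 in VMH against Arc, and was 0 in DMH against Arc. With normexp it was 9 in VMH, 8 in VMH against DMH, 5 in VMH against Arc and 2 in DMH against Arc. In Arc, normexp gave 1 higher member (Unc5b) and 2 lower ones. With trended and robust eBayes it was 10 in VMH, 3 in DMH and 9 in VMH against DMH. In VMH against DMH it was 3 with quantile normalization, 2 with no filter and 8 with the mean of a gene's probes; DMH against Arc had 0 with no filter. With the slide row as a block it was 0 in DMH, 1 in Arc, 2 in VMH against DMH and 0 in DMH against Arc. With every probe as a feature, chosen after seeing the data, it was 5 in VMH against Arc. The cause of these shifts was not tested. Each of the 17 called differences was also computed within each slide row, and all 34 values kept their sign, at 0.738 to 1.25 times the pooled value. The differences had been called on these same arrays, so the kept signs are no test of a row effect.

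With the replicate number as a block, the count was 3 in VMH, 0 in DMH, 0 in Arc, 2 in VMH against DMH and 0 in DMH against Arc. Deviations of arrays with the same number correlated at 0.0743 to 0.186 over 7 pairs, and those with different numbers at -0.126 to 0.0164 over 14. Every same-number pair was thus above every different-number pair. The deviations are taken from the mean of each nucleus, so the 2 Arc arrays mirror each other (r = -1). High same-number values therefore push different-number values down, and the pairs are not independent. The numbers were still not taken to pair the samples, because the labels do not tie them to shared animals. Every array correlated best with its own number, which is a hint from the data, not from the design.

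Of 16 named differences not called, followed under 271 alternatives, 9 were called and 7 reversed, none of these past the threshold: Dcc in VMH became 0.0089 with the slide row as a block, 0.0032 without Arc replicate 2, 0.0216 without VMH replicate 1 and 0.0816 without VMH replicate 2 (range -0.196 to 0.0816 with 1 array left out); Epha5 in Arc became -0.0431 with quantile normalization and -0.391 with the mean of its probes; Nrp2 in VMH became 0.0384 with the mean of its probes. Robo3 could not be fitted under 1 alternative, the filter on all 8 arrays. Signal near background limits what can be said of Robo1, Robo3 and Robo4.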
